A study of Mus musculus with 14 samples.

Results

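Sox9-eGFP mice carry a green fluorescent reporter that follows the activity of Sox9, a transcription factor gene of the intestinal crypt, and the brightness of a cell sorts it by its place in the crypt. The comparison described here sets the brightest cells of the small intestinal epithelium, sorted as High and linked in this mouse to enteroendocrine cells, against the dim cells sorted as Sublow, linked to the transit-amplifying progenitors that divide before they differentiate. Both groups came from C57BL/6J mice with the reporter, with no other treatment or allele named in the labels and no age given. The 3 High and the 3 Sublow libraries were taken by their column names, 6 of the 14 small RNA libraries in the series. The other 8 libraries, 3 each of Low (linked to crypt stem cells) and Negative (linked to differentiated cells) and 2 of Non-sorted epithelium, entered the same fit so that all groups shared 1 estimate of the spread. Each gate is set on reporter brightness, so a population can hold more than 1 cell type. Whether libraries of 1 group came from separate mice is not stated, so the p-values rest on the spread between the deposited libraries, which may be technical. Same-numbered libraries of the groups share a code at the start of their column names, whose meaning is not stated. The main fit treats them as unpaired.

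MicroRNAs (miRNAs) are short RNAs cut from hairpin precursors, and they guide Argonaute proteins to messenger RNAs that pair mainly with bases 2 to 8 of the miRNA, its seed. miRNAs that share a seed can bind many of the same messages, so families are best read by seed as well as by name. Hormone-secreting cells of the gut and the pancreas are known for miR-375 and miR-7, intestinal enterocytes for miR-192, miR-194 and miR-215, and dividing cells for the miR-17-92 cluster.

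The deposited values are reads scaled to a library total of 1000000 (RPM). Of 2030 entries, 534 carry the plain name of a mature miRNA, called annotated-start entries here. The other 1496 end in a signed number, read here as a start shifted by that many bases. The 588 entries with at least 10 RPM in at least 3 libraries were tested, and they comprise 275 annotated-start entries, with 252 mature names, and 313 shifted ones. The depth estimated from the steps between low values, in units of 1000000 reads, was 13.4, 2.87 and 1.89 in the High libraries and 16.4, 4.53 and 13.2 in the Sublow libraries. The search for these steps allowed only units that put the smallest listed value at about 10 reads. This floor was thus assumed, and the depths rest on it. Under it the smallest listed value was worth 9.99 to 10.9 reads in each library, and an entry at 0 had fewer than about 10 reads. The smallest listed value was 0.76 to 5.55 RPM in High and 0.62 to 2.41 RPM in Sublow. Over the tested entries the log2 values correlated at 0.835 to 0.929 among High libraries, 0.891 to 0.973 among Sublow libraries and 0.705 to 0.860 between the groups.

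High replicate 2 and Sublow replicate 2 listed miR-295-3p, from the miR-290 cluster of pluripotent cells, at 928 and 811 RPM, and the miR-290 and miR-302 miRNAs made up 0.266% and 0.238% of these libraries, while they stood at 0 in the other 4. Each column name carries a lane tag, and no tag was shared between High and Sublow, so no within-lane value exists and lane and population cannot be told apart among these 6 libraries. For High replicates 1 and 2 and 2 Low libraries the tag reads Combo with lane number 0, which may stand for combined lanes, and it was taken as a level of its own. A fit with this tag as a term (the lane term), in which Low and Negative libraries connect the lanes, is given beside the results it changes. In that fit, the tag of High replicate 3 holds no other library.

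The sequences of the miRNAs on which the comparison turns come from RefSeq (GRCm38.p6), which held 203 of the 252 tested mature names. They are written 5′ to 3′ with the seed in capitals. The first set holds miRNAs that were higher in High cells, with the seed shared by miR-7a and miR-7b and the 3 different seeds of the neighbours miR-99b, let-7e and miR-125a.
miR-1224-5p: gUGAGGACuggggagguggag
miR-672-5p: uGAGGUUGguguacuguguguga
miR-153-3p: uUGCAUAGucacaaaagugauc
miR-184-3p: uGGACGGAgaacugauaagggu
miR-7a-5p: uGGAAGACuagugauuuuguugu
miR-7b-5p: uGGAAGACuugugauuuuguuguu
miR-182-5p: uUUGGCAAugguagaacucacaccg
miR-183-5p: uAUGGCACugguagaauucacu
miR-99b-5p: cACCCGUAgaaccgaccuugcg
let-7e-5p: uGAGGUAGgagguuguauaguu
miR-125a-5p: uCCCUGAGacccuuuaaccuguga

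The second set holds miRNAs that were lower in High cells, beside miR-192-5p, which shares its seed with miR-215-5p, and miR-194-2-3p, whose sequence is not that of miR-194-1-3p, so the 2 copies of miR-194 can be told apart on this arm.
miR-215-5p: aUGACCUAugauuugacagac
miR-192-5p: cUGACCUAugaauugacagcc
miR-194-5p: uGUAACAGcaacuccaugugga
miR-194-1-3p: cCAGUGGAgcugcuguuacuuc
miR-194-2-3p: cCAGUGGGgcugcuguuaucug
miR-203-3p: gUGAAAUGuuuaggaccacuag
miR-802-5p: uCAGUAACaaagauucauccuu
miR-21-5p: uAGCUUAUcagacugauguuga
miR-17-5p: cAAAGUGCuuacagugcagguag
miR-20a-5p: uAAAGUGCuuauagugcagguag
miR-93-5p: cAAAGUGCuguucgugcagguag

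The 2 populations differed across much of the miRNA profile. Of the 588 tested entries 297 (50.5%) passed an adjusted p of 0.05 in limma, 165 (28.1%) higher in High and 132 (22.4%) lower. Among the 275 annotated-start entries 89 were higher (32.4%) and 60 lower (21.8%), which is 83 and 54 mature names, and among the 313 shifted entries 148 passed (47.3%), 76 higher (24.3%) and 72 lower (23.0%). The library values of High and Sublow did not overlap for 328 of the 588 entries (55.8%) and for 166 of the 275 annotated-start ones (60.4%). The median difference was 0.07 on the log2 scale over all tested entries and 0.09 over the annotated-start ones, and these are the values against which the families below are read. Counts of called list members below stand beside the annotated-start shares of 32.4% higher and 21.8% lower. They were not tested against these shares, and the lists were chosen with earlier results of these data known. RPM are shares of a library, and miR-215-5p alone took 4.04% of High and 24.3% of Sublow reads. When every library was rescaled to its total without miR-215-5p, the median moved to -0.15 and 115 entries were higher and 185 lower, so the share of calls that were higher was 38.3% against 55.6% as deposited. With lane as a term 159 entries passed, 81 higher and 78 lower, and 151 of these were among the 297. Without replicate 2 of both groups 257 passed, 237 of them among the 297, and none of the shared calls changed sign in either fit. With the replicate number as a block, which pairs same-numbered libraries, 314 passed, 292 of them among the 297. These are bulk libraries, in which fewer cells of a type and less of a miRNA per cell cannot be told apart.

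**Figure D1:**
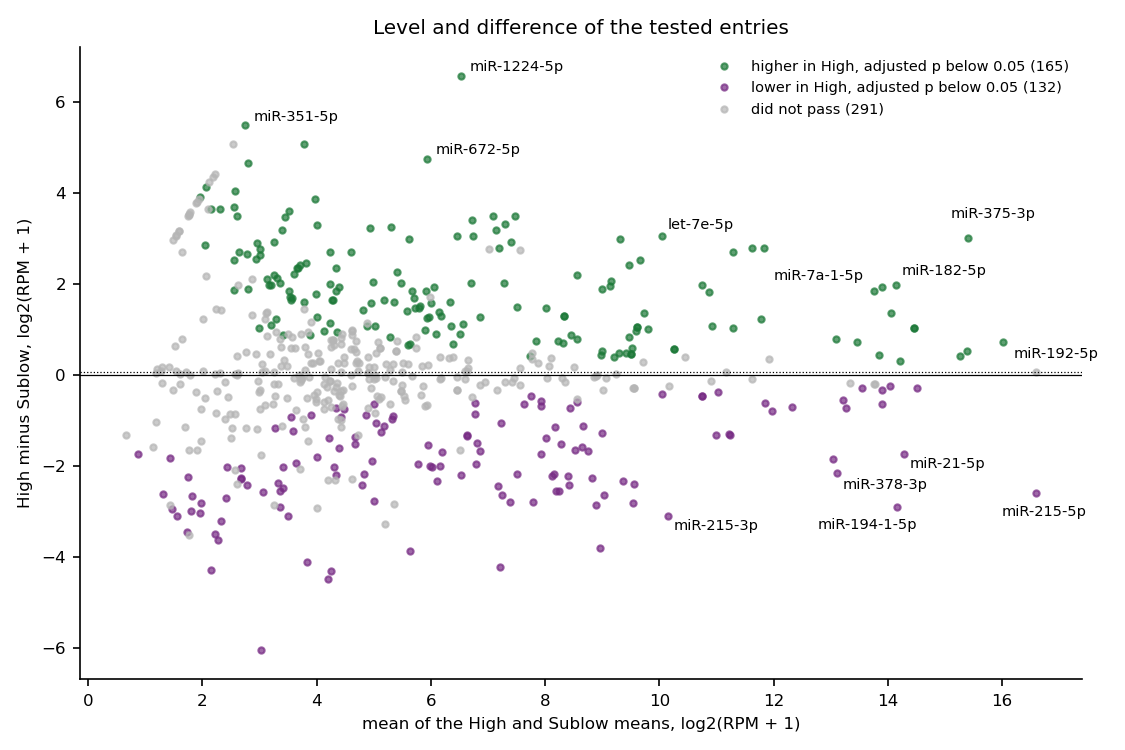
Each point is 1 of the 588 tested entries, with its mean level on the horizontal axis and its High minus Sublow difference on the vertical axis, both on the log2(RPM + 1) scale. Green points (165) were higher in High and violet points (132) lower at an adjusted p below 0.05, and 291 grey points did not pass. The dotted line is the median difference of 0.07. Differences reach from the lowest to the most abundant entries, miR-375-3p and miR-215-5p among them.

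The list of endocrine and neuroendocrine miRNAs has 7 members, of which 6 were among the entries and 5 were tested. It was chosen with earlier results of these data known, so its direction is not independent support. All 5 tested members passed the test upward, with a median difference of 3.01, and kept that call with the lane term and without replicate 2. The summed level of the list was 151300 to 172900 RPM in High libraries and 24040 to 25630 RPM in Sublow libraries. miR-375-3p, which regulates hormone secretion in pancreatic islets, stood at 118340, 135120 and 117010 RPM in High, against 14530, 18384 and 13326 RPM in Sublow. It was 12.4% ± 1.01 of the miRNA reads of High cells and 1.54% ± 0.264 of those of Sublow cells (SD, n = 3 each), where every High library lay above every Sublow library. The difference was 3.01 ± 0.23 (SE) on the log2 scale, 8.01-fold, with adjusted p = 8.41e-07.

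The miR-7 family is abundant in neurons and islets. miR-7a-5p, listed under its hairpin miR-7a-1, had 37058, 27530 and 26248 RPM in High, against 9304, 5551 and 9193 RPM in Sublow. miR-7b-5p had 11782, 9793 and 7741 RPM in High, against 1754, 1029 and 1484 RPM in Sublow. Both rose, by 1.94 ± 0.26 (adjusted p = 7.04e-05) and 2.79 ± 0.33 (adjusted p = 2.76e-05). Together the miRNAs with the seed GGAAGAC summed to 40050 ± 7792 RPM in High and 9438 ± 2483 RPM in Sublow (SD, n = 3 each).

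The passenger arms of the 2 miR-7a hairpins differed in their values. miR-7a-2-3p had 491, 422 and 451 RPM in High, against 49.2, 24.4 and 50.2 RPM in Sublow, a difference of 3.50 ± 0.45 (adjusted p = 4.65e-05). miR-7a-1-3p, from the hairpin in an intron of Hnrnpk, had 37.6, 44.4 and 31.8 RPM in High, against 47.5, 27.0 and 54.6 RPM in Sublow, with overlapping groups and no call (adjusted p = 0.793). It was named after its values were seen. The 5p arms of the 2 hairpins share 1 mature sequence, so their listed values do not separate the hairpins.

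miR-153-3p, a neuronal miRNA encoded in an intron of Ptprn2, had 70.5, 127 and 55.0 RPM in High, against 3.05, 0 and 2.27 RPM in Sublow. In Sublow it was thus at or near the limit of detection, and the difference of 5.08 ± 0.67 (adjusted p = 6.27e-05) depends on the pseudocount of 1 (6.448 with 0.1 and 2.937 with 10). miR-184-3p, known from islets and the eye, had 336, 330 and 258 RPM in High, against 41.4, 34.0 and 32.4 RPM in Sublow, and rose by 3.06 ± 0.30 (adjusted p = 5.64e-06). Of the other listed members, miR-9-5p was not tested because it was listed at 0 in 5 of the 6 libraries.

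The largest difference among the 15 entries named upward was that of miR-1224-5p. It is a mirtron, a miRNA whose hairpin is a spliced intron, and lies in Vwa5b2. Its values were 593, 1288 and 960 RPM in High, against 6.26, 14.7 and 6.30 RPM in Sublow. All 3 High libraries lay far above all 3 Sublow libraries, and the means of 947 ± 348 and 9.08 ± 4.86 RPM (SD, n = 3 each) stood 104-fold apart (log2 difference 6.59 ± 0.45, adjusted p = 2.95e-07). miR-672-5p, in an intron of the X-linked gene Nexmif, followed with 309, 280 and 363 RPM in High, against 11.5, 11.5 and 9.32 RPM in Sublow (4.75 ± 0.40, adjusted p = 1.99e-06).

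Among the rest of the 15 named upward, several have roles in neurons or lie in introns of known genes. miR-132-3p, induced by CREB in neurons, had 133, 120 and 162 RPM in High, against 14.2, 17.7 and 17.2 RPM in Sublow (2.998 ± 0.32, adjusted p = 1.06e-05). Its cluster neighbour with the same seed, miR-212-3p, named here after its values were seen, had 34.0, 19.9 and 11.6 RPM in High, against 3.23, 2.43 and 0.99 RPM in Sublow (adjusted p = 0.00200). The pair rose together. miR-139-3p, from an intron of Pde2a, averaged 499 ± 77.1 RPM in High and 50.0 ± 13.0 RPM in Sublow (3.31 ± 0.22). miR-92b-3p averaged 598 ± 94.2 RPM in High and 52.0 ± 6.16 RPM in Sublow (3.49 ± 0.27). miR-744-5p, from an intron of Map2k4, had 1550, 2035 and 1845 RPM in High, against 138, 402 and 205 RPM in Sublow (2.99 ± 0.32). These 3 had adjusted p of 2.23e-07, 8.93e-07 and 1.03e-05.

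The calls of miR-574-5p and miR-127-3p did not hold when some single libraries were left out. miR-574-5p had 113, 125 and 126 RPM in High, against 0, 58.5 and 33.7 RPM in Sublow, and its call (3.26 ± 1.13, adjusted p = 0.0311) was lost with the lane term (adjusted p = 0.148), after rescaling without miR-215-5p (adjusted p = 0.0519) and when any 1 of the 3 High libraries was left out (highest adjusted p = 0.0667, without replicate 3). miR-127-3p, from the imprinted Dlk1-Dio3 region, had 263, 235 and 264 RPM in High, against 29.5, 73.6 and 11.5 RPM in Sublow. Its call (3.06 ± 0.98, adjusted p = 0.0209) was lost without High replicate 1, Sublow replicate 1 or Sublow replicate 3, with a highest adjusted p of 0.0866.

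**Figure D2:**
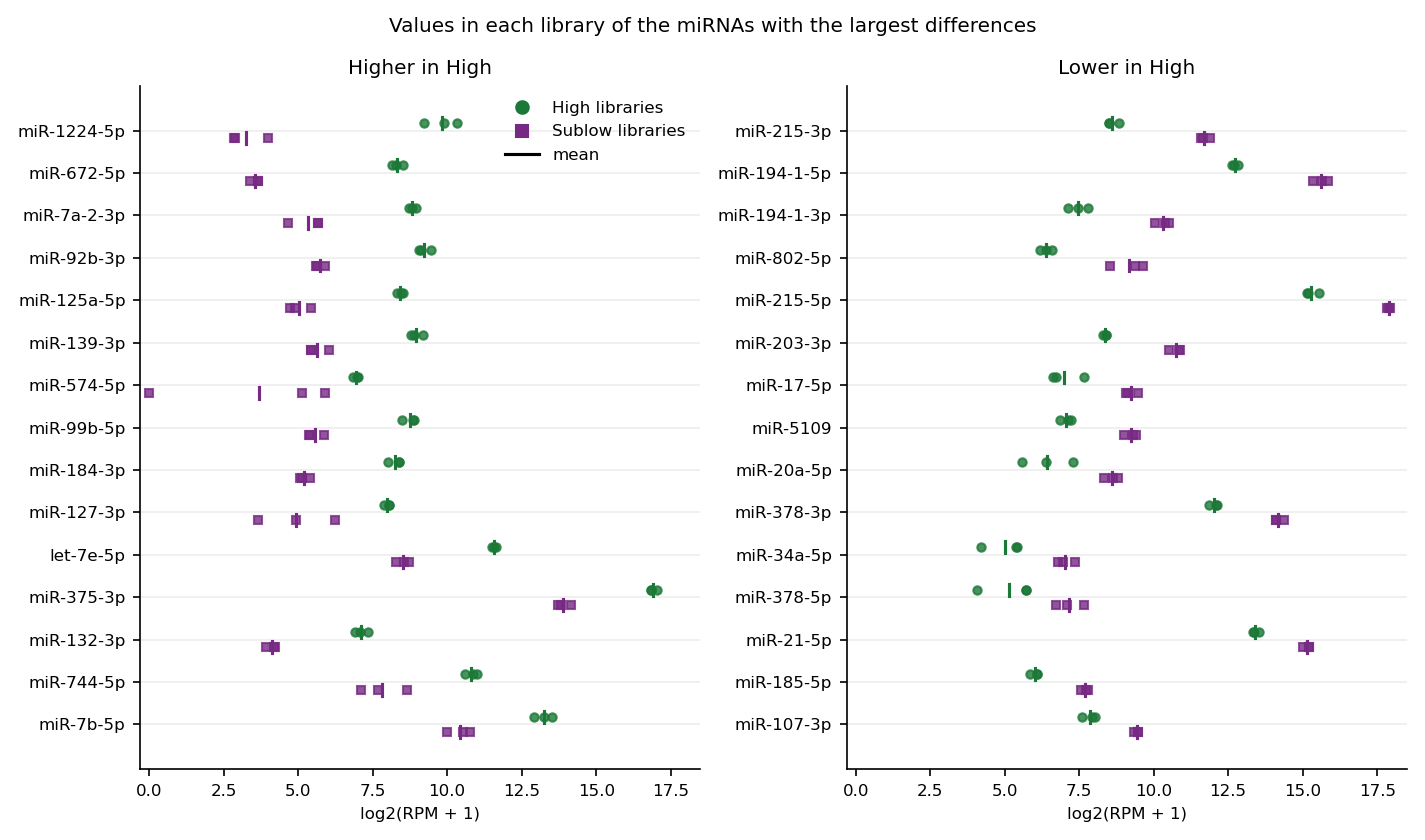
Library values on the log2(RPM + 1) scale of the 15 miRNAs with the largest differences in each direction among annotated-start entries that passed the test, had a mean of at least 100 RPM in the higher group and did not overlap between groups. Circles are the 3 High libraries, drawn above the squares of the 3 Sublow libraries, and vertical lines are means. The wide Sublow spread of miR-574-5p and miR-127-3p sets them apart from the other entries on the left.

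The miR-99b, let-7e and miR-125a hairpins sit within 10000 bases of each other inside Spaca6, and all 5 tested arms of the cluster were higher in High, with a median of 3.19. let-7e-5p, the most abundant of them, had 3154, 3026 and 2923 RPM in High, against 418, 370 and 310 RPM in Sublow (3.06 ± 0.22, adjusted p = 5.85e-07). miR-99b-5p had 472, 461 and 359 RPM in High, against 57.9, 40.2 and 41.5 RPM in Sublow (3.19 ± 0.47, adjusted p = 0.000142). miR-125a-5p had 367, 346 and 315 RPM in High, against 42.5, 25.2 and 28.6 RPM in Sublow (3.41 ± 0.26, adjusted p = 8.18e-07). The 3 guide strands moved by nearly the same factor of 8.29 to 10.7 in mean RPM. miR-99b-3p, a minor arm at 40.2 ± 2.28 RPM in High and 9.90 ± 2.09 RPM in Sublow, lost its call with the lane term (adjusted p = 0.352), after rescaling without miR-215-5p (adjusted p = 0.0683) and without replicate 2 (adjusted p = 0.0940), where the other 4 arms kept theirs. let-7e-3p was too low to test.

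The cluster of miR-183, miR-96 and miR-182 marks sensory cells such as hair cells and photoreceptors. miR-182-5p had 36201, 39315 and 33101 RPM in High, against 8342, 9499 and 9489 RPM in Sublow (1.99 ± 0.10, adjusted p = 1.68e-08). miR-183-5p had 3291, 3479 and 3391 RPM in High, against 894, 779 and 924 RPM in Sublow (1.97 ± 0.11, adjusted p = 7.86e-08). Both were thus 3.97-fold and 3.91-fold higher, while miR-96-5p, the middle member, did not pass the filter, at no more than 4.42 RPM in any of the 6 libraries.

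The miR-200 family maintains the epithelial state by repressing the Zeb factors, and 7 of its 8 tested entries were higher in High, with a median of 0.78. The largest rises were on the seed AACACUG: miR-141-3p had 2790, 4421 and 3577 RPM in High, against 986, 1129 and 896 RPM in Sublow (1.82 ± 0.17, adjusted p = 3.25e-06), and miR-200a-3p had 25018, 30316 and 27095 RPM in High, against 10903, 12091 and 9266 RPM in Sublow (1.36 ± 0.13, adjusted p = 4.04e-06). Their sum was 31070 ± 3482 RPM in High and 11760 ± 1534 RPM in Sublow, 2.64-fold. On the other seed of the family, AAUACUG, the sum of miR-200b-3p, miR-200c-3p and miR-429-3p was 37890 ± 817.7 RPM in High and 26160 ± 2624 RPM in Sublow, 1.45-fold (SD, n = 3 each). miR-200c-3p moved least, by 0.30 ± 0.08 (adjusted p = 0.00997), and its difference turned to -0.046 when libraries were rescaled without miR-215-5p. Its call was also lost with the lane term (adjusted p = 0.0938) and without replicate 2 (adjusted p = 0.0778). The list kept 4 calls under that rescaling and 4 with the lane term.

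**Figure D3:**
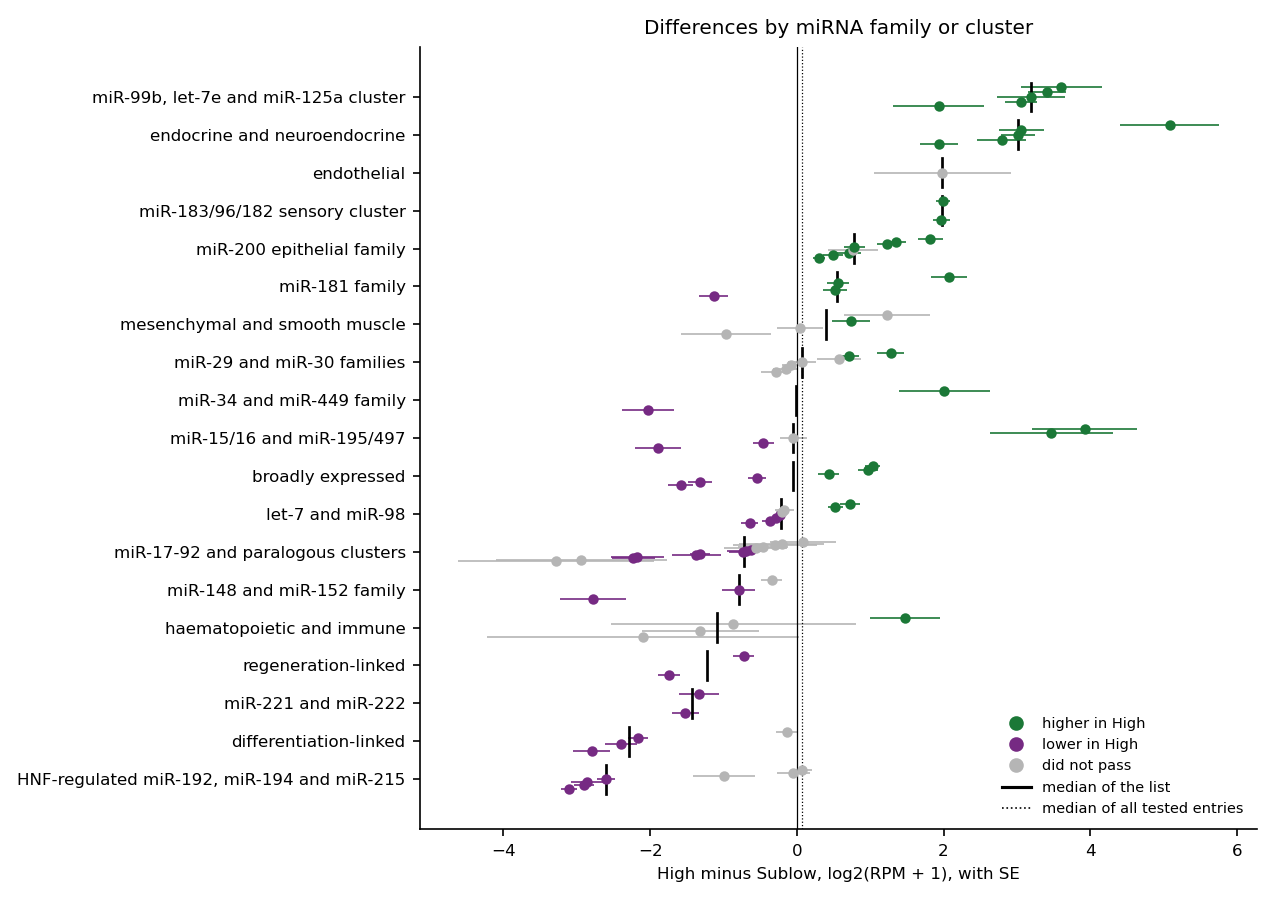
High minus Sublow differences (log2(RPM + 1), with SE) of the tested members of the families and clusters, ordered by the median of each list (black bar). Green and violet points passed the test upward and downward, and grey points did not pass. The dotted line is the median of all tested entries, 0.07. The endocrine list and the miR-99b cluster lie far to the right and the miR-192, miR-194 and miR-215 list far to the left. The miR-290 and miR-302 list, listed in 2 of the 6 libraries, is not drawn.

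Part of the miRNAs controlled by hepatocyte nuclear factors were lower in High cells. On this list miR-194-5p was represented by its more abundant copy, miR-194-1-5p. Of 7 tested entries 4 passed downward, all listed under the miR-215 and miR-194-1 locus on chromosome 1, and none upward, with a list median of -2.60. miR-215-5p, the most abundant miRNA of Sublow cells, had 36188, 37413 and 47543 RPM in High, against 252330, 233630 and 244370 RPM in Sublow. Its High mean was 0.166 times the Sublow mean (-2.60 ± 0.12, adjusted p = 1.33e-08). miR-215-3p, the passenger arm, had 358, 358 and 451 RPM in High, against 3764, 3214 and 3055 RPM in Sublow (-3.10 ± 0.11, adjusted p = 2.59e-09). miR-194-1-5p had 6673, 6351 and 7213 RPM in High, against 59428, 41427 and 51765 RPM in Sublow (-2.90 ± 0.14, adjusted p = 1.65e-08). miR-194-1-3p had 175, 137 and 219 RPM in High, against 1333, 1473 and 1053 RPM in Sublow (-2.87 ± 0.22, adjusted p = 8.18e-07).

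On chromosome 19, where miR-192 and miR-194-2 are neighbours, miR-192-5p and miR-194-2-3p gave other values. miR-192-5p had 89615, 113890 and 103900 RPM in High, against 86744, 112810 and 93075 RPM in Sublow, so the groups overlapped and the difference of 0.07 (95% confidence interval -0.22 to 0.36) did not pass (adjusted p = 0.685). miR-194-2-3p had 508, 361 and 511 RPM in High, against 360, 604 and 479 RPM in Sublow (-0.05, interval -0.54 to 0.44, adjusted p = 0.889). The minor arm miR-192-3p averaged 14.9 ± 5.47 RPM in High and 30.6 ± 11.04 RPM in Sublow, without a call (adjusted p = 0.0668). It passed downward with the replicate number as a block (adjusted p = 0.0171), with a term for miR-295-3p (adjusted p = 0.0132), after rescaling without miR-215-5p (adjusted p = 0.0215), and also after median-ratio rescaling and without High replicate 3, each of which makes 5 of 7 on the list lower. Because miR-192-5p and miR-215-5p share the seed UGACCUA, their sum was 142800 ± 14760 RPM in High and 341000 ± 4793 RPM in Sublow, 0.419 times. As listed, miR-194-2-5p was also lower in High, at 4421 RPM on average against 16259 RPM in Sublow. The mature miR-194-5p sequence is the same for both copies, so the listed split of its 5p reads between them does not separate the loci. The contrast between the loci thus rests on the other arms and on miR-192 and miR-215.

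Other miRNAs of differentiated epithelium were lower in High cells as well: 3 of 4 on that list passed downward, with a median of -2.28. miR-802-5p, known from liver and intestine, had 94.5, 72.1 and 81.9 RPM in High, against 794, 369 and 658 RPM in Sublow (-2.80 ± 0.26, adjusted p = 3.25e-06). miR-203-3p, which promotes the differentiation of keratinocytes, had 313, 337 and 333 RPM in High, against 1857, 1461 and 1908 RPM in Sublow (-2.40 ± 0.22, adjusted p = 2.89e-06). miR-378-3p, from the Ppargc1b locus of mitochondrial metabolism, had 4414, 3744 and 4325 RPM in High, against 17652, 17421 and 21121 RPM in Sublow (-2.17 ± 0.14, adjusted p = 1.97e-07). The fourth, miR-22-3p, averaged 1834 ± 131 RPM in High and 2031 ± 335 RPM in Sublow, with an interval of the difference of -0.46 to 0.18 (adjusted p = 0.460). After rescaling without miR-215-5p it passed downward (-0.48, adjusted p = 0.0247), which makes all 4 lower.

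miR-21-5p and miR-31-5p, both tied to epithelial repair and growth, were lower in High. miR-21-5p had 10454, 10270 and 11960 RPM in High, against 33201, 37997 and 37996 RPM in Sublow, 0.299 times (-1.74 ± 0.15, adjusted p = 2.20e-06). miR-31-5p had 7847, 7257 and 7993 RPM in High, against 13534, 12174 and 12386 RPM in Sublow (-0.72 ± 0.14, adjusted p = 0.00132), and its call was lost with the lane term (adjusted p = 0.209).

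Of the 14 tested members of the proliferation-linked miR-17-92 cluster and its paralogues, 7 were lower in High, none was higher, and the median was -0.72. The share lower over all annotated-start entries was 21.8%. The other 7 did not pass, among them miR-17-3p and miR-19a-3p (adjusted p = 0.284 and 0.709). miR-19b-3p, listed under miR-19b-2, averaged 113.7 RPM in High and 98.9 RPM in Sublow (0.09 ± 0.45, adjusted p = 0.906). The count of lower members was 9 with the replicate block, with a term for miR-295-3p and after rescaling without miR-215-5p, 7 without replicate 2 and 5 with the lane term. miR-17-5p had 98.0, 203 and 104 RPM in High, against 562, 539 and 717 RPM in Sublow (-2.23 ± 0.29, adjusted p = 5.98e-05). miR-20a-5p had 46.7, 155 and 82.99 RPM in High, against 395, 322 and 446 RPM in Sublow (-2.17 ± 0.36, adjusted p = 0.000359), a call that the lane term ended (adjusted p = 0.0627). miR-93-5p, from the paralogous cluster inside Mcm7, a replication gene, had 1210, 1305 and 1368 RPM in High, against 2972, 3007 and 3797 RPM in Sublow (-1.32 ± 0.14, adjusted p = 8.61e-06). In High replicate 2 the values of miR-17-5p and miR-20a-5p were the highest of the 3 High libraries, but below every Sublow library. The 6 miRNAs with the seed AAAGUGC, which these 3 share, summed to 1628 ± 259.0 RPM in High and 4476 ± 554.9 RPM in Sublow, 0.364 times.

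miR-221-3p and miR-222-3p, which repress the cell cycle inhibitor p27, summed to 246 ± 30.2 RPM in High and 686 ± 105 RPM in Sublow, and both fell (-1.52 ± 0.18 with adjusted p = 2.96e-05, and -1.33 ± 0.27 with adjusted p = 0.00156). miR-103-3p and miR-107-3p, from introns of pantothenate kinase genes, summed to 1765 ± 159.8 RPM in High and 4515 ± 351.9 RPM in Sublow, and both fell (adjusted p = 3.78e-05 and 1.12e-05). The 2 hairpin copies of miR-103 had values within 3.34% of each other, so the change cannot be assigned to 1 of them. miR-34a-5p, a target of p53, had 17.4, 41.1 and 41.8 RPM in High, against 164, 111 and 122 RPM in Sublow (-2.03 ± 0.36, adjusted p = 0.000551). Its relative miR-34c-5p averaged 37.6 ± 9.94 RPM in High and 8.75 ± 3.44 RPM in Sublow (2.01 ± 0.62, adjusted p = 0.0181), a call lost with the lane term (adjusted p = 0.156), after rescaling without miR-215-5p (adjusted p = 0.0699) and without replicate 2 (adjusted p = 0.0550). The remaining entries named downward were miR-185-5p, miR-378-5p and miR-5109, at 63.7, 39.4 and 133 RPM in High and 206, 148 and 609 RPM in Sublow on average. miR-378-5p lost its call with the lane term (adjusted p = 0.0778).

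miRNAs of 1 seed did not always move together. Of 31 seeds shared by 2 or more tested miRNAs with a RefSeq sequence, 11 held at least 2 called members that all moved the same way and 5 held called members in both directions. Over all annotated-start entries 54.2% passed, 32.4% upward and 21.8% downward, and the seed counts were not tested against these shares. Each count holds 1 seed that depends on miR-351-5p or miR-322-5p, which met the filter through the High libraries alone. To show how closely they match, 4 such pairs are printed, the member that was higher in High first in each.
miR-181c-5p: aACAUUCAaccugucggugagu
miR-181b-5p: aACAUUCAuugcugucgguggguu
miR-26a-5p: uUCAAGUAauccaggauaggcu
miR-26b-5p: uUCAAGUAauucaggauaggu
miR-92b-3p: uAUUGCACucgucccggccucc
miR-25-3p: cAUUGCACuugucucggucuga
let-7b-5p: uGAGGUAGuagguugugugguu
let-7g-5p: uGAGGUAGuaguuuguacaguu

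In the miR-181 family 3 of 4 members were higher and 1 lower. miR-181c-5p had 901, 1447 and 1208 RPM in High, against 234, 370 and 240 RPM in Sublow (2.08 ± 0.24, adjusted p = 2.57e-05). miR-181b-5p, listed under miR-181b-2, had 315, 200 and 315 RPM in High, against 637, 534 and 623 RPM in Sublow (-1.13 ± 0.19, adjusted p = 0.000468). The groups of each did not overlap, and they lay on opposite sides. The calls of miR-181a-5p and miR-181d-5p, 0.56 ± 0.15 and 0.53 ± 0.16, were lost with the lane term (adjusted p = 0.321 and 0.924) and after rescaling without miR-215-5p (adjusted p = 0.221 and 0.340).

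The miR-26 family is encoded in introns of the Ctdsp phosphatase genes. miR-26a-5p, whose 2 copies were listed within 0.35% of each other, had 35214, 34270 and 28158 RPM in High, against 15823, 14774 and 16843 RPM in Sublow (1.04 ± 0.10, adjusted p = 5.64e-06). miR-26b-5p had 9085, 7713 and 7060 RPM in High, against 11890, 9486 and 13565 RPM in Sublow (-0.54 ± 0.13, adjusted p = 0.00404), a call lost with the lane term (adjusted p = 0.0594).

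On the seed AUUGCAC, miR-92b-3p rose while miR-25-3p had 2856, 2740 and 3401 RPM in High, against 3820, 5250 and 4839 RPM in Sublow (-0.62 ± 0.13, adjusted p = 0.00222). miR-92a-3p, listed under miR-92a-1 and the most abundant of this seed, had 4358, 2551 and 5849 RPM in High, against 6000.6, 6549 and 7082 RPM in Sublow. Its call (-0.70 ± 0.26, adjusted p = 0.0397) was lost with the lane term (adjusted p = 0.175), without replicate 2 (adjusted p = 0.216) and when any of 5 libraries was left out, High replicate 2 giving the highest adjusted p of 0.150.

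The let-7 family, which opposes stem cell programmes, split in the same manner. Of 8 tested members on the list 2 were higher and 4 lower, with a median of -0.22, and let-7e-5p, counted with its cluster, was higher. The shares over all annotated-start entries were 32.4% higher and 21.8% lower. let-7b-5p had 87923, 72852 and 96704 RPM in High, against 53300, 55886 and 46405 RPM in Sublow (0.72 ± 0.14, adjusted p = 0.00106). let-7g-5p had 13738, 10657 and 12465 RPM in High, against 18627, 18793 and 19863 RPM in Sublow (-0.64 ± 0.12, adjusted p = 0.000718). Summed over the seed GAGGUAG the family reached 204000 ± 19330 RPM in High and 167400 ± 9564 RPM in Sublow. The lane term left 1 call on the list, that of let-7g-5p (adjusted p = 0.0402), and leaving out replicate 2 left 2 higher and 1 lower.

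In the miR-15/16 family miR-497-5p was higher and 2 of 5 tested members were lower, with a median of -0.05. The median and the tested members include miR-322-5p. It met the filter through the High libraries alone, so its direction is not counted here. miR-16-5p, the most abundant, had 1466, 1570 and 1385 RPM in High, against 2167, 1632 and 2325 RPM in Sublow (-0.46 ± 0.15, adjusted p = 0.0209), a call lost with the lane term (adjusted p = 0.148), in the fit of only the 6 High and Sublow libraries, with no filter and when any of 4 libraries was left out (highest adjusted p = 0.0871, without Sublow replicate 3). miR-15b-5p had 17.4, 18.8 and 10.8 RPM in High, against 64.6, 46.6 and 69.5 RPM in Sublow (-1.89 ± 0.31, adjusted p = 0.000345). miR-497-5p had 39.3, 35.9 and 31.2 RPM in High, against 0, 12.6 and 1.59 RPM in Sublow (3.47 ± 0.83, adjusted p = 0.00481). The size of this difference rests on the low Sublow values: it was 1.718 with a pseudocount of 10, 4.779 with one of 0.1 and 2.614 without Sublow replicate 1, and passed in each. miR-322-5p, encoded on the X chromosome, had 14.97, 16.4 and 11.6 RPM in High and was listed at 0 in all 3 Sublow libraries. Its neighbour miR-351-5p, named after its values were seen, had 46.2, 50.2 and 37.0 RPM in High and was listed at 0 in all Sublow, Low and Negative libraries. miR-351-5p and miR-322-5p were the tested entries listed in all 3 High libraries and in no Sublow library, and both met the filter through the High libraries alone, so neither a fold nor a p is given for them.

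In the miR-148 and miR-152 family 2 of 3 were lower. All 3 were lower with a term for miR-295-3p, after median-ratio rescaling and after rescaling without miR-215-5p. miR-152-3p, from an intron of Copz2, had 9.46, 18.46 and 7.93 RPM in High, against 70.7, 83.8 and 95.6 RPM in Sublow (-2.78 ± 0.44, adjusted p = 0.000277). miR-148a-3p had 3139, 2752 and 3257 RPM in High, against 3799, 6312 and 6087 RPM in Sublow (-0.79 ± 0.22, adjusted p = 0.0118), a call lost with the lane term (adjusted p = 0.0726) and without replicate 2 (adjusted p = 0.110). Of 7 tested miR-29 and miR-30 miRNAs 2 were higher, miR-30b-5p (1.28 ± 0.18, adjusted p = 0.000106) and miR-30d-5p (0.72 ± 0.14, adjusted p = 0.00104), and 5 did not pass. After rescaling without miR-215-5p 2 of this list were higher and 3 lower, with a median of -0.28. Of 6 broadly expressed miRNAs 3 were higher and 3 lower, with a median of -0.05. Beside these counts, 32.4% of all annotated-start entries were higher and 21.8% lower.

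Markers of other cell types were low or mixed. Of all annotated-start entries 32.4% were higher and 21.8% lower, so a count of 1 in 4 higher lies near that share. Among mesenchymal and smooth muscle miRNAs 1 of 4 tested was higher, the list summed to 307 to 369 RPM in High and 201 to 283 RPM in Sublow, and miR-145-5p, a smooth muscle miRNA, and miR-125b-5p were listed at 0 in all 6 libraries. The one that passed, miR-10b-5p (0.74 ± 0.26, adjusted p = 0.0317), lost its call with the lane term (adjusted p = 0.662), after rescaling without miR-215-5p (adjusted p = 0.235) and without replicate 2 (adjusted p = 0.210). Among immune miRNAs 1 of 4 tested was higher and 3 did not pass, with a list median of -1.09. The list summed to 459 to 470 RPM in High and 115 to 426 RPM in Sublow. miR-142-3p, which marks blood cells, was listed at 0 in all 6 libraries. miR-142-5p had 12.9, 4.18 and 0 RPM in High and 14.04, 0 and 27.9 RPM in Sublow. miR-155-5p averaged 17.9 RPM in High and 53.7 RPM in Sublow, and miR-150-5p 7.52 and 28.6 RPM. With a term for miR-295-3p, and also without Sublow replicate 2, 1 member of the list was called lower. The one that passed, miR-146a-5p, had 394, 444 and 458 RPM in High, against 135, 103 and 265 RPM in Sublow (1.47 ± 0.48, adjusted p = 0.0229), and its call was lost with the lane term (adjusted p = 0.924), after rescaling without miR-215-5p (adjusted p = 0.0698) and without replicate 2 (adjusted p = 0.144). The endothelial miR-126-5p and miR-126-3p together reached 10.2 to 17.1 RPM in High and 0.98 to 5.96 RPM in Sublow. The 1 tested, miR-126-5p, did not pass (adjusted p = 0.0944). It passed upward with a pseudocount of 10, in the fit of only the 6 High and Sublow libraries and with a term for miR-295-3p. The erythroid miR-451 and miR-144-3p were at 0 in all 6. The 8 tested miR-290 cluster miRNAs had no call. The part of these cells in the results above was not tested.

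The shifted forms named here were picked for the size of their own differences, so they do not show how shifted forms behave in general. Those of miR-375-3p and miR-215-5p moved the same way as their annotated forms. The named forms of miR-375-3p that started 1 base upstream, 1 base downstream and 2 bases downstream differed by 2.80 ± 0.25, 2.70 ± 0.26 and 2.92 ± 0.27, beside 3.01 for the annotated start. Those of miR-215-5p shifted by -1 and +1 differed by -2.79 ± 0.19 and -2.81 ± 0.14, beside -2.60. A plain ratio of the shifted to the annotated form does not depend on library scaling, but the tested ratio has 1 added to each RPM value. It can thus depend on scaling where an entry is low, and the ratios were not refitted after rescaling. The tested ratio passed in 28 of 297 pairs (9.43%), 18 higher (6.06%) and 10 lower (3.37%). This count depends on the processing: it was 14 with a pseudocount of 0.1, 93 with one of 10 and 6 with the lane term. In the pairs with both forms at 100 RPM or more in 1 of the groups, miR-5117-5p had its form shifted by -1 at 12.3%, 7.89% and 8.89% of the annotated form in High, against 32.4%, 31.3% and 38.8% in Sublow (adjusted p = 0.000196, and 0.0768 with the lane term). The form of miR-378-3p shifted by +1 was at 4.97% of the annotated form in High and 3.47% in Sublow on average (adjusted p = 0.00963), a call lost with the lane term (adjusted p = 0.0898), without replicate 2 (adjusted p = 0.0660), in the fit of only the 6 High and Sublow libraries and with no filter (adjusted p = 0.0907). That of miR-183-5p was at 48.1% in High and 35.3% in Sublow (adjusted p = 0.0495), a call lost with the replicate block (adjusted p = 0.0692), with the lane term (adjusted p = 0.377) and when any library was left out.

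The balance of the 2 hairpin arms differed in 15 of 65 hairpins (23.1%), 7 higher (10.8%) and 8 lower (12.3%) in the ratio of 5p to 3p. With the lane term 4 hairpins passed. The 7 include miR-210, whose 5p arm averaged 23.9 RPM in High and 0.733 RPM in Sublow and met the filter only through the High libraries. They also include miR-877 and miR-1981, whose 3p arms were listed at 0 in High replicates 2 and 3. Among the named hairpins let-7d had the lowest adjusted p. let-7d-5p averaged 10883 ± 565 RPM in High and 13247 ± 499 RPM in Sublow, while let-7d-3p, named after its values were seen, had 685, 752 and 999 RPM in High, against 125, 256 and 167 RPM in Sublow. The 5p arm was thus 1379% of the 3p arm in High and 7861% in Sublow on average, a difference in the log2 ratio of -2.47 ± 0.31 (adjusted p = 0.000132, and 0.0202 with the lane term). The 2 arms carry different seeds, given in capitals.
let-7d-5p: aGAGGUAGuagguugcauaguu
let-7d-3p: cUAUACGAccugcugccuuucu

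Other named arm ratios behaved as follows. For miR-194-2 and miR-7a-2 the ratio fell by 1.81 ± 0.34 and 1.64 ± 0.31 (adjusted p = 0.00264 for each), but their 5p reads are shared in sequence with the other copy. The miR-194-2 call was lost with the lane term (adjusted p = 0.244) and the miR-7a-2 call with a pseudocount of 0.1 (adjusted p = 0.181). For miR-423 the 5p arm was 309% of the 3p arm in High and 177% in Sublow (0.78 ± 0.20, adjusted p = 0.0142), and the call was lost with the lane term (adjusted p = 0.244), without replicate 2 (adjusted p = 0.0666) and without Sublow replicate 3 (adjusted p = 0.0512). The ratio of miR-574 passed (3.42 ± 1.10, adjusted p = 0.0426). Without Sublow replicate 1, where the 5p arm was listed at 0, the difference was 1.623 and still passed. The call was lost with the lane term (adjusted p = 0.295), without replicate 2 (adjusted p = 0.0544) and without any 1 of the 3 High libraries (highest adjusted p = 0.122).

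**Figure D4:**
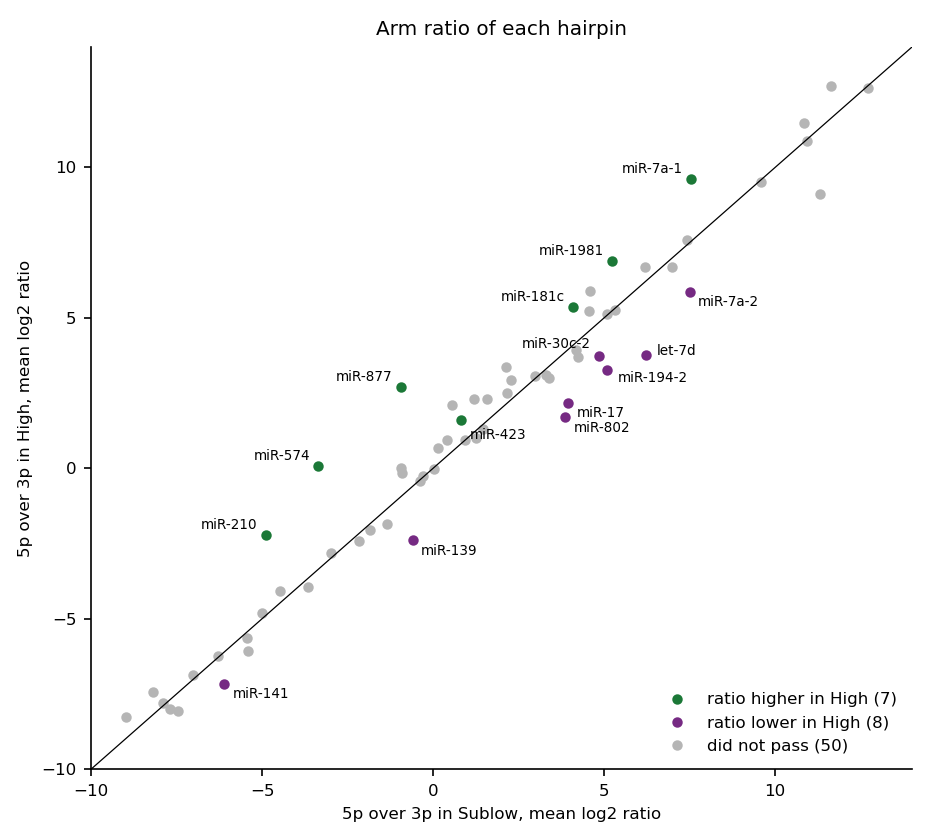
Mean log2 ratio of the 5p to the 3p arm of 65 hairpins in High (vertical axis) and in Sublow (horizontal axis). The line marks equal ratios. Green points (7) had a higher and violet points (8) a lower ratio in High at an adjusted p below 0.05. let-7d, miR-194-2 and miR-7a-2 lie below the line and miR-574 and miR-423 above it.

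The last comparison asked where Low cells lay between High and Sublow cells, by testing the midpoint of the 2 populations against Low on the log2 scale. The midpoint differed from Low in 152 of the 588 entries (25.9%), above it in 32 (5.44%) and below it in 120 (20.4%). Among the 275 annotated-start entries it differed in 92 (33.5%), above in 15 (5.45%) and below in 77. The split depends on scaling: after median-ratio rescaling of the libraries 67 lay above and 32 below. Of the 10 named miRNAs, 9 kept their call in every alternative run, median-ratio rescaling included. miR-215-5p had 36188, 37413 and 47543 RPM in High and 252330, 233630 and 244370 RPM in Sublow, against 49283, 43681 and 52462 RPM in Low, so Low lay near High and far from Sublow (midpoint minus Low 1.03 ± 0.10, adjusted p = 7.23e-05). miR-215-3p, miR-194-1-5p and miR-194-1-3p did the same, by 0.99 ± 0.09, 1.11 ± 0.12 and 0.99 ± 0.19 (adjusted p = 7.09e-05, 9.07e-05 and 0.00280).

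Some miRNAs had Low outside the range of the other 2. miR-210-3p, a target of hypoxia signalling, had 110, 102 and 126 RPM in High and 34.9, 55.6 and 39.6 RPM in Sublow, against 10.4, 15.1 and 17.1 RPM in Low (2.23 ± 0.22, adjusted p = 7.09e-05). Its difference between High and Sublow (1.38 ± 0.25, adjusted p = 0.000708) was lost with the lane term (adjusted p = 0.0999). miR-181d-5p had 596, 548 and 698 RPM in High and 373, 416 and 491 RPM in Sublow, against 1298, 1704 and 1640 RPM in Low (-1.59 ± 0.14, adjusted p = 7.09e-05). miR-181c-3p and miR-222-3p likewise had their highest values in Low, by -2.24 ± 0.33 and -1.67 ± 0.24 (adjusted p = 0.000813 and 0.000596). miR-152-3p averaged 11.95 ± 5.69 RPM in High and 83.4 ± 12.5 RPM in Sublow, against 135 ± 82.3 RPM in Low, where the Low libraries overlapped the Sublow ones (-1.93 ± 0.38, adjusted p = 0.00375). For miR-1224-5p Low had 331, 181 and 295 RPM, nearer to High than to Sublow (-1.50 ± 0.39, adjusted p = 0.0149), a call lost after median-ratio rescaling (adjusted p = 0.0775) and with a pseudocount of 0.1 (adjusted p = 0.161).

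**Figure D5:**
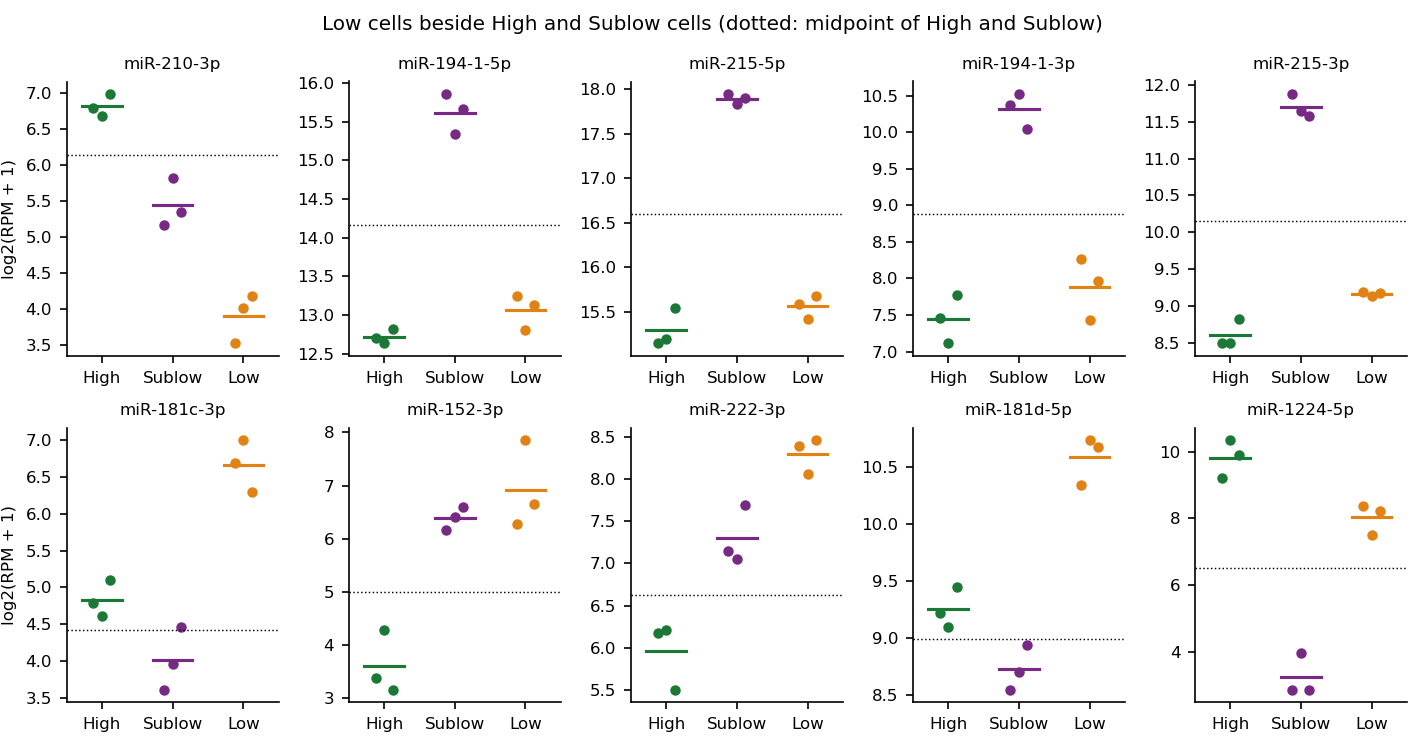
Library values (log2(RPM + 1)) in High, Sublow and Low cells of the 10 miRNAs named for the position of Low. Points are libraries, bars are means, and the dotted line is the midpoint of High and Sublow. In the upper row the 3 Low libraries lie below the midpoint, in the lower row above it. Each panel has its own vertical axis, which does not start at 0.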

How the data were processed

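Small RNA libraries of Sox9-eGFP mouse intestinal cells were prepared with the TriLink CleanTag kit, per the labels' protocols. The authors deposited 1 table of RPM values (every library sums to 1000000 within rounding), replicates not pooled, and the submitters' processing notes name the build mm9. The sources used here name no aligner or counting settings, and no mm9 coordinate is printed. Values became log2(RPM + 1), a scale that understates fold changes of low entries. Entries with at least 10 RPM in at least 3 libraries were fitted with limma 3.58.1 (R 4.3.3, empirical Bayes with trend) on 14 libraries in 5 groups, and two-sided p-values were adjusted by Benjamini-Hochberg over the 588 tested entries (297 pairs and 65 hairpins for the ratios). The midpoint is the mean of High and Sublow. The script was tested on simulated data. Named were the 15 annotated-start entries with the largest difference in each direction (mean of at least 100 RPM in the higher group, no overlap), 5 shifted forms, ratios and midpoints each way, the 10 most abundant entries, and members of 21 fixed lists. Members and lists were chosen with earlier results of these data known.

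Depth was estimated from the steps between low values (77.3% to 84.8% of low values whole within 0.1 read), which limits precision most in High replicates 2 and 3. Same-numbered High and Sublow libraries share a code at the start of their column names, whose meaning is not stated. Their deviations from the group means correlated at 0.58, 0.601 and 0.375, and those of differently numbered High and Sublow libraries at -0.49 to 0.21. Deviations within a group are not independent of each other. The replicate numbers were taken to pair the libraries. The main fit did not use this pairing, and a fit with the replicate number as a block was run as an alternative. Other alternatives were pseudocounts, filters, scaling, lane, the miR-295-3p split and leaving out libraries. miRNA sequences are from RefSeq (GRCm38.p6), and host genes and neighbours were read on GRCm38 from GENCODE M21 and RefSeq.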

Additional observations from a re-analysis of the deposited data

How the results depend on the processing

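Of 112 named results, 70 kept their call in every alternative run, and 13 of 15 named upward and 13 of 15 named downward did so. The exceptions were miR-574-5p, miR-127-3p, miR-20a-5p and miR-378-5p. With a filter of at least 100 RPM in at least 3 libraries 170 entries passed, 80 higher (54 annotated, 26 shifted) and with 42 shifted ones lower, fewer entries being tested. With lane as a term 159 passed, 81 higher and 78 lower, of which 47 and 37 were annotated and 34 and 41 shifted. Entries of 1 mature name summed gave 147, 88 higher and 59 lower, of 272. Rescaled without miR-215-5p, 58 annotated entries were higher. Leaving out 1 library gave 245 to 285 calls. With the replicate block 314 entries passed, 292 of them among the 297, and beyond the calls given above among named results the block removed the call of let-7f-5p (adjusted p = 0.0502), and it raised the calls of the miR-17-92 list to 9 and added that of miR-192-3p.

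The ratio counts moved most. Shifted-to-annotated pairs past the threshold were 14 and 93 with pseudocounts of 0.1 and 10, 170 with no filter, 11 with the 100 RPM filter, 6 with only the 6 High and Sublow libraries, 6 with the lane term, 9 without replicate 2 of both groups, and 10 to 47 without 1 library (11 without High replicate 2, 47 without High replicate 3, 14 without Sublow replicate 1, 10 without Sublow replicate 3). Arm ratios were 9 and 25 with those pseudocounts, 27 with no filter, 9 with the 100 RPM filter, 4 with the lane term and 9 to 14 without 1 library, 9 being without High replicate 3. The midpoint count was 99 (67 above, 32 below) after median-ratio rescaling and 92 (52 below) without miR-215-5p. The cause of these moves was not tested.

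Signs turned for miR-192-5p (-0.274 without miR-215-5p, -0.168 with the lane term, and -0.00698 to 0.183 without 1 library, negative without High replicate 2 or Sublow replicate 1), miR-200c-3p (-0.0461 without miR-215-5p) and miR-194-2-3p (0.294 without replicate 2 of both groups, and -0.243 to 0.130 without 1 library, positive without High or Sublow replicate 2). The 2 alternatives that set both replicate 2 libraries apart were a term for miR-295-3p, with 336 calls that held all 297, and leaving both out, with 257, the second chosen after seeing the data. Leaving out 1 library also ended the calls of miR-10b-5p and miR-191-5p (High replicates 1 or 2, Sublow replicates 1 or 2), miR-146a-5p (High replicates 2 or 3, Sublow replicates 1 or 2), miR-16-5p (High replicates 1 or 3, Sublow replicates 1 or 3), miR-34c-5p (High replicates 1 or 2, Sublow replicate 3), miR-181d-5p (High replicate 3, Sublow replicate 1), miR-99b-3p (High replicate 1, Sublow replicate 2), miR-98-5p (High replicate 2, Sublow replicate 3), miR-200b-5p (Sublow replicate 1), let-7f-5p (any but Sublow replicate 1) and miR-92a-3p (any but High replicate 3), with adjusted p of at most 0.150. A pseudocount of 0.1 ended the calls of miR-574-5p, miR-34c-5p and miR-99b-3p and of the miR-574 arm ratio (adjusted p = 0.0646, 0.215, 0.171 and 0.108), and rescaling without miR-215-5p those of let-7c-5p, miR-191-5p, miR-200a-5p, miR-200b-5p and miR-200c-3p. Fitting only the 6 High and Sublow libraries ended the calls of miR-16-5p, miR-92a-3p, miR-98-5p, miR-200b-5p, miR-574-5p and the named miR-183-5p, miR-378-3p, miR-423 and miR-574 ratios. Leaving out the filter ended the calls of let-7f-5p, miR-10b-5p, miR-16-5p, miR-92a-3p, miR-98-5p, miR-181d-5p, miR-191-5p and those 4 ratios, and median-ratio rescaling the calls of miR-10b-5p and miR-191-5p. Calls were gained by miR-192-3p and miR-22-3p. Depth limits entries below the smallest listed value, which was taken as about 10 reads.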
